A study of Mus musculus with 18 samples.

Results

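The genes described here are 10 components of ER-associated degradation: Herpud1, Syvn1, Sel1l, Derl1, Derl2, Edem1, Os9, Vcp, Dnajb9 and Dnajc3. They were taken by gene name from a table of 20683 genes, in which each had a 5' leader, a coding sequence (CDS) and a 3' UTR line, 30 of the 58476 lines in all. Their positions in the harringtonine data were those the files list under the same names, 10 of 9025 positions. The members were not chosen by a value, but Herpud1 was already known from earlier results of these data to have risen.

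All samples were mouse fetal liver erythroblasts, red cell precursors grown in culture, of the FVB/n x C57BL/6 strain and the Trp53 -/- genotype, so that the untreated cells also lacked the p53 gene. Tunicamycin, which blocks N-glycosylation in the ER, was given at 2.5 ug/ml for 1.5 h, and untreated cells were the control. Each treatment was sampled 3 times as total RNA, 3 times as ribosome footprints after cycloheximide (100 ug/ml for 5 min), which freezes ribosomes where they are, and 3 times as footprints after harringtonine (2 ug/ml), which holds ribosomes at start sites, giving 18 samples. The comparison asked how transcript level, ribosome load and start site use of these genes changed under acute ER stress that induces eIF2 phosphorylation.

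ER-associated degradation removes misfolded proteins from the ER: lectins and mannosidases mark misfolded glycoproteins, a membrane complex built around a ubiquitin ligase moves them out and tags them, and a cytosolic ATPase pulls them free for the proteasome. Several of its genes are known targets of the unfolded protein response, the transcriptional programme that the sensors ATF6, IRE1 with XBP1, and PERK with ATF4 start when misfolded proteins accumulate. In erythroblasts, as in other cells, the pathway handles membrane and secreted glycoproteins.

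RNA libraries held 12.9 to 49 M counts, the CDS lines of the cycloheximide libraries 4.53 to 6.65 M, and the harringtonine libraries 0.447 to 0.648 M reads on the kept positions. All 13 erythroblast markers were at 5 CPM (counts scaled to library size) or more, with a summed RNA level of 6050 to 6300 CPM in tunicamycin libraries and 5990 to 6240 CPM in untreated libraries. No macrophage, neutrophil and monocyte, hepatocyte or endothelium and stroma marker (0 of 5 in each list) reached 5 CPM. Their summed levels were at most 1.96 CPM in tunicamycin libraries and 2.18 CPM in untreated libraries. Mast cell markers reached 5 CPM for 2 of 5 genes and summed to 138 to 215 CPM under tunicamycin and 134 to 209 CPM in untreated cells, led by Ms4a2. Megakaryocyte markers did so for 1 of 5, Gp5, which averaged 100 CPM over the RNA libraries, against 4.94 CPM for the next, Itga2b. The megakaryocyte sum, which was mostly Gp5, was 95.4 to 105 CPM under tunicamycin and 112 to 119 CPM in untreated cells, without overlap. The part of that difference in the results below was not tested. In such bulk samples a smaller number of cells and less RNA per cell cannot be told apart.

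Of the 10 genes, 1 changed in RNA and in CDS footprints under tunicamycin: Herpud1. Herpud1 encodes a ubiquitin-like membrane protein of the ER that binds the ligase complex. Its RNA was 82.6, 102.7 and 99.2 CPM in tunicamycin-treated cells, against 35.1, 35.8 and 41.5 CPM in untreated cells (94.8 ± 10.8 CPM against 37.5 ± 3.48 CPM, SD, n = 3 each). All treated libraries lay above all untreated libraries, and the ratio of the means was 2.53. The log2 fold change, tunicamycin over untreated here and throughout, was 1.36 ± 0.09 (SE, edgeR quasi-likelihood test, adjusted p = 5.93e-05), the 2nd of 10643 genes tested by size. In RNA, 0.150% of all genes tested passed as higher and 0% as lower, and blocking on the replicate number raised the number of genes passing to 410, against 16 without it, with no change in the members' calls.

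Footprints on the Herpud1 CDS were 50.5, 68.2 and 82.2 CPM in tunicamycin-treated cells, against 40.9, 39.1 and 42.4 CPM in untreated cells (67.0 ± 15.9 CPM against 40.8 ± 1.63 CPM, SD, n = 3 each). The groups did not overlap, but the treated libraries spread widely and the lowest of them lay nearer to the untreated libraries than to the highest treated one. The log2 fold change was 0.72 ± 0.14 (SE, edgeR, adjusted p = 0.016). Among all genes tested in CDS footprints, 1.78% passed as higher and 0.799% as lower, and Herpud1 ranked 160 of 9265 by size. The call was lost without tunicamycin footprint replicate 2 (adjusted p = 0.0662, edgeR), tunicamycin replicate 3 (0.108) or untreated replicate 2 (0.0998). The log2 fold change lay between 0.53 and 0.88 whichever library was left out.

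The estimate for Herpud1 was smaller in footprints than in RNA, but the difference between them did not pass. Measured as translational efficiency (CDS footprints per RNA), it was -0.64 ± 0.18 on the log2 scale (SE, edgeR interaction over the RNA and footprint libraries, adjusted p = 0.087). Of the 10 genes 0 passed in this measure by edgeR or limma-voom, and 1 (Herpud1) had an unadjusted p under 0.05, beside 15.4% of all genes tested. For this measure 1.04% of all genes tested passed as higher and 0.445% as lower. Blocking on the replicate number gave -0.65, which passed (adjusted p = 0.00849, edgeR), while it did not pass in the other alternatives run, which ranged from -0.82 to -0.48. With the block 839 of the 9218 genes tested passed, against 137 without it.

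**Figure D1:**
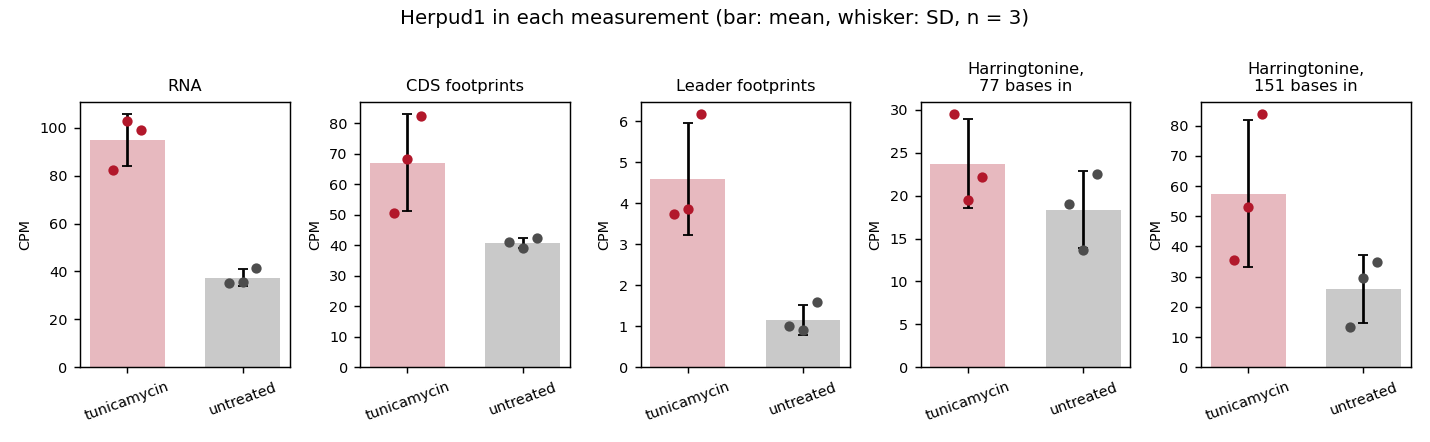
Herpud1 in CPM (linear axes from 0) in RNA, CDS footprints, leader footprints and at 2 harringtonine positions, 77 and 151 bases from the annotated gene start; bars are means, whiskers SD and points the 3 libraries of each treatment. The tunicamycin libraries lie above all untreated libraries except at the position 77 bases in, where they overlap.

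The Herpud1 gene lies on chromosome 8 (GRCm38, 94386429 to 94395371). Its promoter window is shown whole because Herpud1 is the member whose RNA changed. It spans 250 bases before to 50 after the annotated start, on the plus strand at chr8:94386179-94386478 (RefSeq, GRCm38.p6). Capitals mark, in order, a match to the ATF4-type element CARE (TTNCATCA, bases -112 to -105) and a match to the ER stress response element II, ERSE-II (ATTGGNCCACG, bases -52 to -42), counted from the start as base 0.
Herpud1 promoter: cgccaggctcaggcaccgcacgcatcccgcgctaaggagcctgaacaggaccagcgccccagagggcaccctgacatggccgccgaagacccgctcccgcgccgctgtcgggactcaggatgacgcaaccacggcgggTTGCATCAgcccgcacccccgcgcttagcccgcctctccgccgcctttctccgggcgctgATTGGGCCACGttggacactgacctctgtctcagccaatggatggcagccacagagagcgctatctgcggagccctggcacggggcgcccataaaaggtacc
On either strand, ERSE-II letters were in 0.0366% and CARE letters in 3.97% of 32817 mouse promoter windows of the same length. A match describes the letters, not a bound site.

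Letters of stress elements were found in the windows of 3 other members, of 9 with a window. Syvn1 (chr19:6046520-6046562, plus strand) and Dnajc3 (chr14:118937815-118937857, plus strand) each held the ER stress response element ERSE, spelled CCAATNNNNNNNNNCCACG and present in 0.119% of all windows. It lay at bases -44 to -26 in Syvn1 and at -105 to -87 in Dnajc3. Vcp (chr4:43000602-43000633, minus strand) held the unfolded protein response element UPRE, spelled TGACGTGG and present in 0.676% of all windows, at bases -114 to -107. These stretches are shown beside genes whose RNA did not pass, with the matched letters in capitals.
Syvn1: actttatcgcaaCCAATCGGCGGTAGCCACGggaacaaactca
Dnajc3: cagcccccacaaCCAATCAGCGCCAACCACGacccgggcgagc
Vcp: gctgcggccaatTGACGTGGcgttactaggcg
ERSE and ERSE-II share the letters CCACG, and UPRE ends in their reverse complement, but no matches overlapped in these windows. The windows of Sel1l, Derl2 (2 starts), Edem1, Os9 and Dnajb9 held none of the 4 strings, which says only that these letters are not in these 300 bases. The RNA log2 changes of the matched genes were 0.10 ± 0.07 for Syvn1, 0.12 ± 0.08 for Dnajc3 and 0.18 ± 0.06 for Vcp, beside 1.36 for Herpud1.

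**Figure D2:**
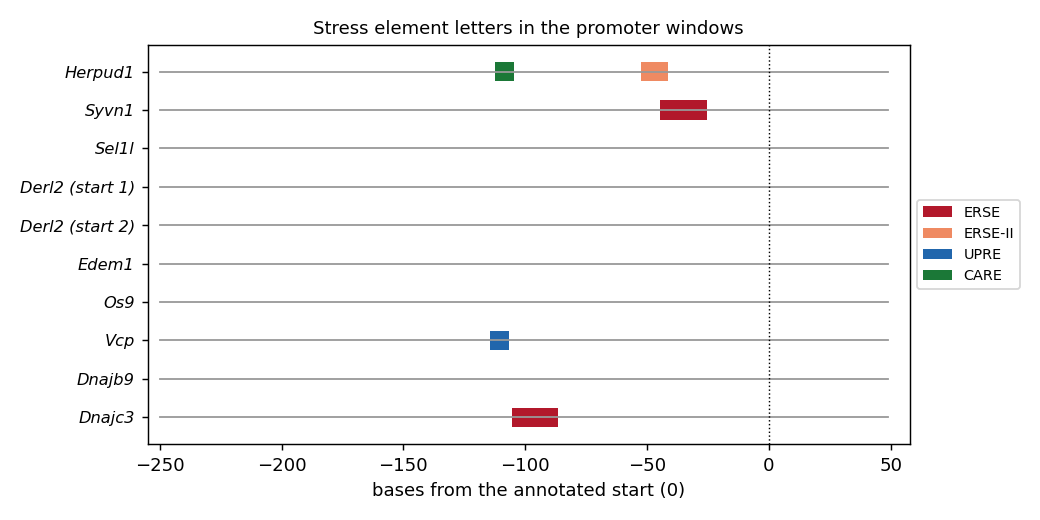
Positions of stress element strings in the promoter windows, in bases from the annotated start (dotted line at 0); each grey line is 1 window and each coloured box 1 match. Boxes stand in the windows of Herpud1 (CARE and ERSE-II), Syvn1 and Dnajc3 (ERSE) and Vcp (UPRE).

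The ubiquitin ligase core did not pass in any of RNA, CDS footprints or translational efficiency. Syvn1 encodes HRD1, the ligase that forms the channel of the complex. Its RNA was 58.2, 66.0 and 67.7 CPM under tunicamycin, against 58.1, 62.0 and 60.0 CPM in untreated cells (log2 0.10 ± 0.07, edgeR adjusted p = 0.624). Its CDS footprints were 61.2, 68.7 and 71.6 CPM under tunicamycin, against 59.7, 64.4 and 70.3 CPM in untreated cells (log2 0.05 ± 0.10, adjusted p = 0.864). The groups overlapped in both measurements.

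Sel1l encodes the adaptor that holds the ligase to its lectins. Its RNA was 94.7, 88.1 and 91.4 CPM under tunicamycin, against 84.8, 81.3 and 81.2 CPM in untreated cells. The groups did not overlap, but the log2 difference of 0.15 ± 0.06 did not pass (edgeR adjusted p = 0.366, and 0.0717 with the replicate number as a block). Sel1l CDS footprints, at 110.7, 110.8 and 101.8 CPM under tunicamycin against 112.6, 107.5 and 111 CPM in untreated cells, overlapped (log2 -0.04 ± 0.09, adjusted p = 0.895).

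Derl1 and Derl2 encode derlins, rhomboid-like membrane proteins of the retrotranslocation channel. Derl1 RNA was 265.6, 253.2 and 255.4 CPM under tunicamycin, against 266.6, 264.6 and 262.8 CPM in untreated cells (log2 -0.04 ± 0.06, edgeR adjusted p = 0.833). Derl1 CDS footprints were 136, 145.3 and 159.4 CPM under tunicamycin, against 136, 137.5 and 156.7 CPM in untreated cells (log2 0.03 ± 0.10, adjusted p = 0.908). For Derl2 the log2 differences were 0.01 ± 0.06 in RNA (adjusted p = 0.971, edgeR) and 0.06 ± 0.11 in CDS footprints (adjusted p = 0.855). Both genes overlapped between treatments in both measurements. Derl2 overlaps the gene Mis12 in the annotation, and no source used here gives the strand setting of the counting, so its values are uncertain to that extent; the same holds for Syvn1 with Mrpl49, Edem1 with Gm35417, Os9 with Gm40799 and Dnajc3 with the pseudogene Gm4678.

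Among the genes that select glycoproteins, Edem1, a mannosidase-like protein that marks glycans for removal, had RNA of 31.0, 32.0 and 30.9 CPM under tunicamycin and 34.6, 31.1 and 34.1 CPM in untreated cells (log2 -0.08 ± 0.07, edgeR adjusted p = 0.686). Its CDS footprints were the fewest of the members in counts, 181 over the tunicamycin libraries and 258 over the untreated libraries (log2 -0.08 ± 0.16, adjusted p = 0.871). Os9, a lectin that hands glycoproteins to the SEL1L complex, had RNA of 144.2, 147 and 149.3 CPM under tunicamycin and 138.3, 143.5 and 147.3 CPM in untreated cells (log2 0.04 ± 0.06, adjusted p = 0.821). Os9 CDS footprints were 221.3, 204 and 215.7 CPM under tunicamycin and 217.2, 213.5 and 250.9 CPM in untreated cells (log2 -0.09 ± 0.09, adjusted p = 0.69). All of these overlapped between treatments.

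Vcp encodes p97, the ATPase that extracts ubiquitinated proteins from the membrane. Its RNA was 346.9, 338.2 and 328.5 CPM under tunicamycin, against 289.5, 296.2 and 311.8 CPM in untreated cells. All treated libraries lay above all untreated libraries, but the log2 difference of 0.18 ± 0.06 did not pass (edgeR adjusted p = 0.305, and 0.0715 with the replicate number as a block). Its CDS footprints were 115.4, 132.5 and 120.2 CPM under tunicamycin, against 123.9, 122.7 and 118 CPM in untreated cells, and overlapped (log2 0.01 ± 0.09, adjusted p = 0.965). RNA groups did not overlap, with tunicamycin higher, for 3 of 10 members (Herpud1, Sel1l and Vcp), beside 9.95% of all genes tested. In CDS footprints this held for 1 of 10 (Herpud1), beside 11.3% of all genes tested. An unadjusted p under 0.05 in RNA (edgeR) was found for 3 of 10 members, again Herpud1, Sel1l (0.0299) and Vcp (0.0122), beside 12.4% of all genes tested. In CDS footprints it was found for 1 of 10 (Herpud1), beside 1542 of 9265 genes tested.

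The ER DnaJ cochaperones, partners of BiP, did not pass either. Dnajb9 (ERdj4), which binds misfolded clients and is a known XBP1 target, had RNA of 22.7, 26.6 and 25.3 CPM under tunicamycin, against 19.9, 21.0 and 26.0 CPM in untreated cells (log2 0.18 ± 0.11, edgeR adjusted p = 0.506). Dnajc3, also called p58IPK, an ER cochaperone described as an inhibitor of PERK, had RNA of 69.5, 76.3 and 83.2 CPM under tunicamycin, against 66.7, 69.8 and 75.0 CPM in untreated cells (log2 0.12 ± 0.08, adjusted p = 0.548). Their CDS footprints differed by 0.03 ± 0.18 for Dnajb9 (adjusted p = 0.96, edgeR) and 0.06 ± 0.10 for Dnajc3 (adjusted p = 0.826). The groups overlapped for both genes in both measurements.

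Over the 10 genes, Herpud1 included, the median log2 difference was 0.11 in RNA, beside -0.00499 over all genes tested. Of the 10, 8 were positive and 2 negative in RNA, 7 and 3 in CDS footprints, and 3 and 7 in translational efficiency. In CDS footprints the median was 0.03, beside 0.00223 over all genes tested, and in translational efficiency it was -0.09, beside -0.01. The 9 genes other than Herpud1 lay between -0.08 and 0.18 in RNA, and their estimates plus or minus 2 SE reached from -0.23 to 0.40. In CDS footprints they lay between -0.09 and 0.06, reaching from -0.41 to 0.39, and in translational efficiency between -0.18 and 0.07, reaching from -0.58 to 0.32. Their smallest adjusted p-values were 0.305 in RNA, 0.69 in CDS footprints and 0.378 in translational efficiency (edgeR). The rise of Herpud1 RNA lay outside the range of the other 9 genes.

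**Figure D3:**
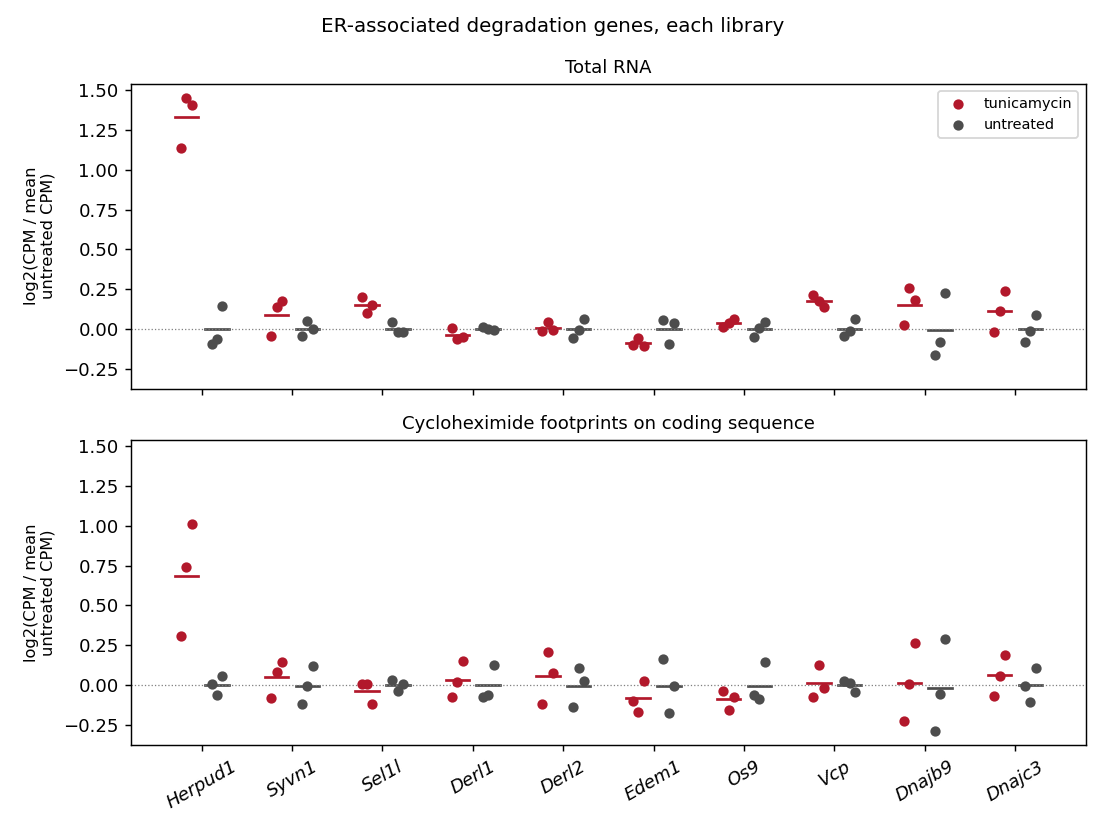
RNA (upper panel) and CDS footprints (lower panel) of the 10 genes in each library, as log2 of CPM over the mean CPM of the untreated libraries; points are libraries, 3 a treatment, and short lines their means. Herpud1 stands above its untreated libraries in both panels, while the other genes lie close to 0.

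**Figure D4:**
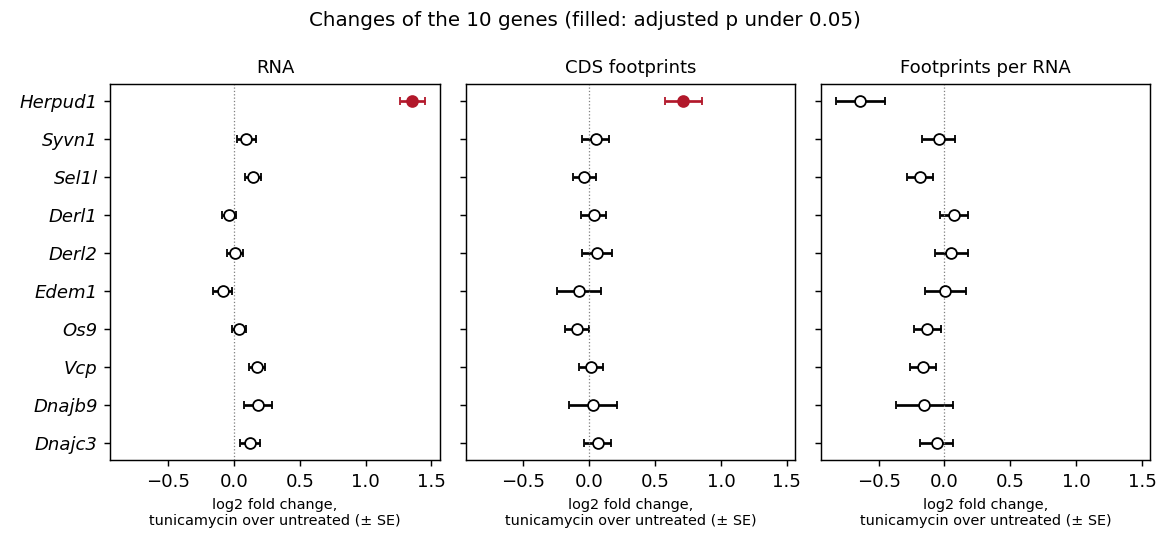
Log2 fold changes, tunicamycin over untreated, of the 10 genes in RNA, CDS footprints and footprints per RNA, with SE as whiskers; filled points passed at an adjusted p under 0.05 (edgeR). Herpud1 is the 1 filled gene in RNA and CDS footprints, and no gene is filled in footprints per RNA.

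The genes whose levels were most like those of Herpud1 over the 12 RNA and CDS libraries, each centred within its assay, were Hspa5 (Pearson r = 0.976), Ccdc174 (0.915), Txnip (0.904), Trib3 (0.896) and Psmc6 (0.895), out of 8111 genes compared. These values describe libraries that share the treatment contrast. Hspa5, the ER chaperone BiP, had RNA of 787.3, 925.3 and 917 CPM under tunicamycin and 468.1, 510.9 and 555.3 CPM in untreated cells. Its RNA rose (log2 0.78 ± 0.08, edgeR adjusted p = 0.00405), and its CDS footprints differed by 0.29 ± 0.09 without passing (adjusted p = 0.108). Among the other members the same likeness was 0.726 for Vcp (place 161), 0.646 for Dnajc3 (place 324), 0.577 for Syvn1 and 0.502 for Dnajb9. It was 0.452 for Sel1l, 0.277 for Derl2, 0.0774 for Derl1, 0.00221 for Os9 and -0.307 for Edem1.

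Other genes of the pathway were read from a list of 65, of which 64 were in the table: lectins and mannosidases, membrane adaptors, ubiquitin enzymes, p97 cofactors, cytosolic handlers and other ER DnaJ proteins. In RNA, 0 of 63 tested passed by edgeR and 0 by DESeq2 or limma-voom, and their median log2 difference was -0.00291. An unadjusted p under 0.05 was found for 5 of the 63, beside 12.4% of all genes tested. The 3 nearest to passing were Sec63, an ER DnaJ protein of the translocon (0.23 ± 0.06, edgeR adjusted p = 0.225), the mannosidase-like Edem2 (-0.19 ± 0.07, adjusted p = 0.316) and the ligase Rnf5 (-0.22 ± 0.08, adjusted p = 0.332). Under the replicate block 2 of the 63 passed, Sec63 as higher (0.23, adjusted p = 0.0299, edgeR) and Rnf5 as lower (-0.22, adjusted p = 0.0443). With the same block 410 of the 10643 genes tested in all passed, 283 as higher and 127 as lower, so these 2 calls do not set the list apart.

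In CDS footprints 1 of 61 pathway genes rose and 1 fell, and their median was -0.03. Over all genes tested 1.78% rose and 0.799% fell, so the pathway's share of calls was near the background. An unadjusted p under 0.05 (edgeR) was found for 15 of the 61, beside 1542 of 9265 genes tested in all. In translational efficiency it was found for 12 of 61, beside 15.4% of all genes tested. Tmub2, a ubiquitin-like membrane protein of the ER, rose to 43.4, 46.8 and 47.5 CPM under tunicamycin, against 31.2, 32.3 and 32.1 CPM in untreated cells (log2 0.53 ± 0.11, edgeR adjusted p = 0.018). Its RNA was 37.5, 42.0 and 43.4 CPM under tunicamycin and 41.4, 46.2 and 43.3 CPM in untreated cells, and its translational efficiency rose by 0.61 ± 0.12 (adjusted p = 0.025), as the 1 of 61 that passed. Edem3, a mannosidase of the same family as Edem1, fell to 59.5, 61.2 and 62.4 CPM of CDS footprints under tunicamycin, against 74.2, 84.3 and 86.1 CPM in untreated cells (log2 -0.42 ± 0.10, edgeR adjusted p = 0.0368). Edem3 RNA differed by 0.01 ± 0.07 (edgeR adjusted p = 0.959). Its translational efficiency differed by -0.43 ± 0.11, which did not pass (edgeR adjusted p = 0.0594). Neither gene's groups overlapped in CDS footprints, but both were named because they passed there, so this adds no separate support. Groups did not overlap, with tunicamycin higher, for 11.3% of all genes tested, and the share with tunicamycin lower is not given here. Neither call held with every library left out in turn. Tmub2 did not pass in CDS footprints without tunicamycin footprint replicate 2 or 3 or untreated replicate 1 or 2 (adjusted p up to 0.102, edgeR), nor in efficiency without tunicamycin footprint replicate 3, untreated footprint replicate 2 or untreated RNA replicate 2 (up to 0.0819). Edem3 did not pass without tunicamycin footprint replicate 2 or 3 or untreated replicate 2 or 3 (up to 0.147).

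Footprints in 5' leaders took a larger share of the whole tunicamycin libraries, 7.86%, 7.94% and 10.4% of leader and CDS footprints, than of the untreated libraries, 5.16%, 4.07% and 5.47%. The leader to CDS ratio was therefore read against a median log2 change of 0.89 over 4417 genes tested, of which 97.7% were positive, 64.3% passed as higher and 0.0679% as lower. Of the 10 genes, 5 had enough leader footprints to be tested, and 4 of these 5 passed as higher, with a median of 0.86. That median is close to the one over all genes tested.

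Herpud1 leader footprints numbered 20, 19 and 35 in tunicamycin libraries, against 7, 6 and 11 in untreated libraries. They made up 7.49%, 5.79% and 7.71% of its leader and CDS footprints under tunicamycin, against 2.53%, 2.33% and 3.79% in untreated cells. The widest exact 95% binomial interval was 4.64% to 11.3% under tunicamycin and 1.91% to 6.69% in untreated cells. The ratio rose by 1.32 ± 0.34 on the log2 scale (edgeR adjusted p = 0.00605), which is 0.43 above the median of all genes tested. With leaders and CDS each scaled by their own factors, which removes the common shift and was chosen after seeing the data, the change was 0.39 ± 0.34 and did not pass (adjusted p = 0.495).

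Dnajc3 (0.98 ± 0.34, edgeR adjusted p = 0.0232), Derl2 (0.86 ± 0.29, adjusted p = 0.0192) and Sel1l (0.82 ± 0.32, adjusted p = 0.037) rose in the leader to CDS ratio by close to the common shift, 0.10 above it for Dnajc3, and with differences from it of -0.03 for Derl2 and -0.07 for Sel1l. Leader shares averaged 6.77% ± 0.189 under tunicamycin and 3.54% ± 1.65 in untreated cells for Dnajc3, 15.4% ± 1.02 under tunicamycin and 9.22% ± 2.92 in untreated cells for Derl2, and 3.46% ± 0.245 under tunicamycin and 1.99% ± 0.329 in untreated cells for Sel1l (SD, n = 3 each). Under separate scaling none of these 3 passed. Sel1l lost its call without any 1 of the 6 footprint libraries (adjusted p from 0.0528 to 0.117, edgeR). Derl2 lost it without tunicamycin replicate 3 (0.0599) or untreated replicate 2 (0.0835), and Dnajc3 without those or untreated replicate 3 (0.0593, 0.0737 and 0.0814).

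Derl1 had the most leader footprints of the members, 147, 118 and 183 under tunicamycin and 161, 134 and 224 in untreated cells. Its leader share was 18.1%, 15.2% and 18.4% under tunicamycin, against 15.2%, 13.1% and 17.8% in untreated cells, and the groups overlapped. The change of its ratio, 0.20 ± 0.24, did not pass (edgeR adjusted p = 0.454) and lay at the 6.36 percentile of all genes tested, -0.69 from their median. Under separate scaling its ratio was lower under tunicamycin, by -0.73 ± 0.17 (adjusted p = 0.00551, edgeR), and 231 genes passed as higher and 318 as lower. Leaving out tunicamycin footprint replicate 3 as well ended that call (-0.63, adjusted p = 0.0702). No source used here says how reads were assigned where the leader of 1 transcript is coding in another.

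**Figure D5:**
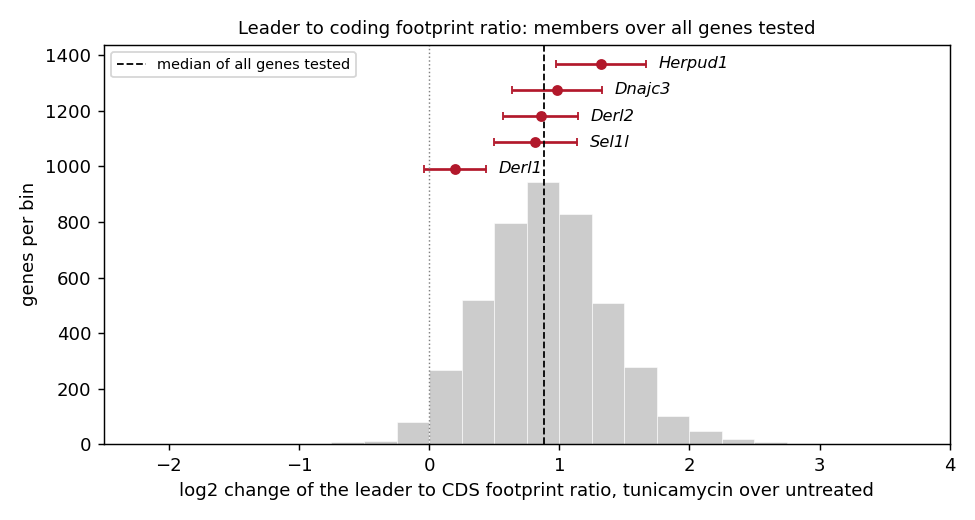
Histogram of the log2 change of the leader to CDS footprint ratio, tunicamycin over untreated, for 4417 genes (vertical axis: genes per bin), with the 5 members tested drawn above it as points with SE whiskers at heights set for legibility. Herpud1 lies right of the median of 0.89 (dashed), Dnajc3, Derl2 and Sel1l close to it, and Derl1 left of it.

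The other 5 members had too few leader footprints for the test. Syvn1 had 5, 10 and 14 under tunicamycin and 2, 4 and 10 in untreated cells. Edem1, Os9, Vcp and Dnajb9 had at most 8 in any library. In the wider list 24 of 32 genes tested passed as higher, beside 64.3% of all genes tested, and 0 as lower. The median was 0.93, beside 0.89 over all genes tested. Under separate scaling 1 of the 32 passed, as higher, beside 231 as higher and 318 as lower of the 4417 genes tested in all. The p97 cofactor Ufd1l stood highest at 2.27 ± 0.30 (adjusted p = 0.000411, edgeR), with 41, 39 and 47 leader footprints under tunicamycin and 14, 12 and 10 in untreated cells. Ufd1l was the gene that passed under separate scaling (1.36 ± 0.27, adjusted p = 0.00166, edgeR). The next by p-value, none of which passed under separate scaling, were the cytosolic handlers Bag6 (1.34), Sgta (1.15) and Ubqln2 (1.33), the ubiquitin enzymes Ube2j2 (1.26) and Ube4b (1.10), the Herpud1 relative Herpud2 (1.10), the cochaperone Dnajb11 (1.13), the mannosidase Man1b1 (0.93) and the glycoprotein-binding Fbxo6 (1.08).

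Footprints on 3' UTRs were few. Derl1 and Os9 were the members with enough to test, and neither passed in the 3' UTR to CDS ratio (0.03 for Derl1, adjusted p = 0.983, and 0.52 ± 0.33 for Os9, adjusted p = 0.674, edgeR), beside 0.449% of all genes tested. For Vcp no 3' UTR footprint was counted, 0 beside 1777 CDS footprints under tunicamycin, which allows a ratio of up to 0.169%, and 0 beside 2386 in untreated cells, which allows up to 0.126%. Such limits and the binomial intervals cover counting error only.

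Every harringtonine position kept in the files held 20 or more reads in all in tunicamycin or in untreated libraries, and 4 of 10 members had any: Herpud1, Sel1l, Derl1 and Vcp. Of their 10 positions 7 were tested, and 0 passed, as did 0% of the 5843 positions tested in all (edgeR quasi-likelihood test; 1 of 7 and 212 of 5843, or 3.63%, had an unadjusted p under 0.05, and DESeq2 called 1 position of all and 0 of the members'). Blocking on the number in the column names let 6 positions pass, 0 of them of the members. The main Herpud1 position, 151 bases from the annotated gene start (chromosome 8, 94386580), had 23, 30 and 49 reads in tunicamycin libraries and 7, 13 and 17 in untreated libraries, 57.5 ± 24.3 CPM against 25.9 ± 11.2 CPM (SD, n = 3 each). The log2 difference of 1.15 ± 0.45 did not pass (adjusted p = 0.999, edgeR), and this was the 1 member position with an unadjusted p under 0.05. The groups did not overlap, but the share of all positions tested for which this holds was not computed.

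A further Herpud1 position, 77 bases from the start (94386506), had 19, 11 and 13 reads under tunicamycin and 10, 6 and 11 in untreated cells, and overlapped (log2 0.36 ± 0.43, adjusted p = 0.999, edgeR). Sel1l had 33, 30 and 35 reads under tunicamycin and 14, 14 and 28 in untreated cells at 123 bases from its start (0.50 ± 0.38). Derl1 had adjacent positions at 110 and 111 bases, the strongest of the members. At 110 bases there were 207, 235 and 370 reads under tunicamycin and 189, 377 and 180 in untreated cells (-0.21 ± 0.36), and at 111 bases there were 64, 125 and 151 under tunicamycin and 67, 46 and 81 in untreated cells (0.54 ± 0.36). Vcp had 3 positions 184 to 254 bases from its start and 2 far inside the gene, at 11800 and 19957 bases, with 2 to 20 reads a library. Distances are along the genome from the RefSeq gene start, and whether a position lies at an annotated start codon was not analysed here. The SE of the log2 difference was 0.36 to 0.52 over the positions tested, and counting error and spread between libraries were not separated.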

How the data were processed

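The authors deposited raw counts per gene feature (5' leader, CDS and 3' UTR) for 6 cycloheximide libraries, with RNA counts per gene of 6 RNA libraries repeated on each feature line, and raw read counts at harringtonine positions for 6 libraries. The submitters' processing notes name STAR, HTSeq, edgeR, mm10 and GRCm38, while no source used here gives versions or counting options. Counts were tested with edgeR 4.0.16 (R 4.3.3): TMM factors, filterByExpr with a minimum count of 10 and total of 15, quasi-likelihood tests and Benjamini-Hochberg adjustment over all genes or positions tested, with 0.05 as the threshold. CPM used TMM-scaled totals. Translational efficiency was the assay by treatment interaction over 12 libraries, and leader to CDS and 3' UTR to CDS ratios were feature by treatment interactions over the 6 cycloheximide libraries with a library term. The edgeR fits for RNA, CDS footprints, translational efficiency, leader to CDS ratios and harringtonine positions were also run on simulated counts. The outcome is not given here, and the simulated spread between libraries was a fixed setting, not taken from these data. Likeness to Herpud1 used log2 CPM with a prior count of 2 and genes of at least 5 mean CPM in each assay.

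The members, the wider list of the pathway, the markers and the motifs were chosen with earlier results of these data known. All members were named, with those of the wider list that passed (at most 10 a comparison, by p-value, otherwise the 3 with the smallest p). Same-numbered RNA libraries deviated together (r = 0.416, 0.312 and 0.191 across genes, against -0.36 to 0.19 for differently numbered ones). This is a hint from the data that the numbers pair these samples, and no label says what a number marks. Harringtonine columns of the same number gave 0.521, 0.152 and 0.129 across positions. Columns t3 and u2, of different numbers, gave 0.413, so the hint is less clear there. Nothing in the labels says that replicates came from separate animals or cultures, so p-values measure the spread between these samples, which may be technical. Alternatives were RLE scaling, no filter, DESeq2 1.42.0 (for RNA, CDS footprints and harringtonine positions), limma-voom (limma 3.58.1), a replicate block and leaving out each library. Separate scaling of leaders and CDS was added after seeing the data. Promoter windows and motif matches came from RefSeq (GRCm38.p6), with both strands searched.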

Additional observations from a re-analysis of the deposited data

How the results depend on the processing

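Over 581 values of single genes or positions under the alternatives, 506 kept their direction and their side of the threshold, 43 changed sign while passing in neither fit, 28 no longer passed, 1 came to pass and 3 reversed. The 3 reversals were leader to CDS ratios under separate scaling of leaders and CDS, at -0.10 for Sel1l, -0.73 for Derl1 and -0.068 for Derl2, where the common shift is removed by construction; 1 member then passed (Derl1, as lower) in place of 4. Herpud1 RNA passed in 11 of 11 alternatives (1.29 to 1.44), its CDS footprints in 8 of 11, its leader to CDS ratio in 10 of 11 and its translational efficiency in 1 of 16. That 1 was the replicate block, under which 1 member passed in translational efficiency in place of 0 (-0.65). Leaving out each library in turn left 0 to 1 members passing in CDS footprints, with Herpud1 at 0.53 to 0.88, and 1 to 3 in the leader to CDS ratio; the cause of the lost calls was not tested.

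Same-numbered cycloheximide libraries correlated in their CDS deviations at 0.348, 0.0943 and 0.277, and differently numbered ones at -0.293 to 0.024. This is a hint of pairing as for RNA, but no label gives it. The replicate block was therefore kept as an alternative. Counts of all genes passing moved with the setting. In RNA 16 became 410 with the replicate block, 122 without the filter and 114 with DESeq2, and 3 to 26 with a library left out. In CDS footprints 239 became 885 with the block and 573 without the filter, and 58 to 431 with a library left out. In translational efficiency 137 became 839 with the block and 23 to 318 with a library left out, and in the leader to CDS ratio 2844 became 549 under separate scaling and 1788 to 2829 with a library left out. For 3' UTRs 9 became 31 without the filter, 0 with voom, 14 with the block and 0 to 27 with a library left out, and for harringtonine positions 0 became 1 with DESeq2, 6 with the block and 0 to 2 with a library left out. In the wider list, CDS calls went from 2 to 6 without the filter, 4 with DESeq2, 9 with the block and 0 to 3 with a library left out, efficiency calls from 1 to 7 with the block and 0 to 2 with a library left out, and leader calls from 24 to 1 under separate scaling and 12 to 21 with a library left out. For harringtonine positions the block used the number in the column names and changed no member's call (Herpud1 at 151 bases, 1.16, adjusted p = 0.358, edgeR). Low counts kept 3 of the 10 member positions, 5 members' leaders and 8 members' 3' UTRs out of the tests.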
